A study of Mus musculus with 9 samples.

Results

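Tumour cells from the mouse brainstem (BS, 3 libraries) were compared with mouse astroglia (AG, 3 libraries), 6 of the 9 libraries of the series. The other 3 libraries, from olfactory bulb tumour cells (OB), entered the fit only to help estimate the spread and are set beside BS once. The BS cells came from mice of mixed 129 and C57BL/6 background, labelled with Foxr2 overexpression and a p53 cko allele. The AG cells came from C57BL/6 mice, with p53 DN and an Nf1 shRNA in their genotype label. Both groups therefore carry an altered p53, and the AG cells are not wild type. Strain, genotype and any difference in culture or dissection go with the group, so their parts in a difference cannot be told apart. Age, promoter, Cre driver and culture conditions were not given in the sources used here. Nothing in the labels states whether the 3 libraries of a group had different mice or cultures as their source. The p-values thus speak only of library-to-library spread, which may be technical. All genes of the deposited table that could be named and tested make up the comparison: 10576 of 14771 named genes reached 10 normalized reads in at least 3 of the 9 libraries.

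As background, Foxr2 encodes a forkhead transcription factor that is mostly silent in the healthy brain and is switched on in some embryonal brain tumours and gliomas. Neural progenitors of the brainstem hold a transcription factor code of SOX, ZIC, POU and basic helix-loop-helix genes, signal to one another through Notch ligands, and prepare ion channels and synaptic proteins as they mature. Astroglia support neurons, couple through gap junctions and take up glutamate, and when injured or grown in culture they build actin fibres, release cytokines and respond through YAP, TGF-beta and NF-kB.

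The table held 14987773 to 19868282 reads per AG library and 12680832 to 15282668 per BS library. Values below are normalized reads, listed for AG_1, AG_2 and AG_3 and for BS_287, BS_295 and BS_296, in that order or as the lowest to the highest of a group's 3 libraries, and changes are BS minus AG in log2(normalized reads + 1), a scale that shrinks changes of low genes. Where a group had 0 reads of a gene, the fold is a lower bound, computed with 3 reads in each library of that group. Where it had 1 to 3 reads, the fold is a ratio of reads with an exact 95% counting interval. Bounds and intervals take in counting error alone. Where RefSeq annotates more than 1 transcript of a gene, the table tends to hold few reads. The median row was 12.57 with 2 transcripts against 258.6 with 1. A low level of such a gene was therefore not read as low expression, and its fold compares only the reads held in the table. The AG libraries correlated at 0.992 to 0.993 across genes and the BS libraries at 0.886 to 0.959, with BS_287 apart from the other two. The median SD of a gene was 0.116 in AG and 0.466 in BS on the log2 scale. Of 9 astrocyte markers in the table, the summed level was 8602 to 8693 in AG and 17395 to 30968 in BS. Of the 6 that were tested, 2 were called higher in BS and 0 lower. Gja1, the main astrocyte connexin, stood at 4961, 5105 and 5396 in AG and 2879, 369 and 1231 in BS and missed the threshold (limma adjusted p = 0.401). Its AG and BS libraries did not overlap. It was called lower in a limma fit of AG and BS alone and in one without OB_257 (smallest limma adjusted p = 0.0281). Gfap, the defining filament of astrocytes with 2 annotated transcripts, stood at 0.834, 2.96 and 3.27 in AG and 91.4, 6.401 and 45.3 in BS, and its level was not read for the reason above. The 9 oligodendrocyte precursor markers summed to 25.8 to 30.6 in AG and 69774 to 125531 in BS. The 7 fibroblast and meningeal markers summed to 36065 to 46839 in AG and 62.1 to 373 in BS, and the 3 pericyte and smooth muscle markers to 52560.4 to 56002.5 in AG and 8.39 to 40.4 in BS. The 4 endothelial markers summed to 921 to 1035 in AG and 28.6 to 242 in BS, and of these Cdh5 and Cldn5 were at 0 in all 3 AG libraries and at 9.86 or less in BS. Csf1r, a macrophage receptor, was at 2.50, 8.87 and 3.27 in AG and 1.68, 0 and 0.985 in BS. The part of other cell types in the differences below was not tested, and in bulk RNA fewer cells of a type and less RNA per cell cannot be told apart.

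The genes of the genotype labels were read before the rest. Foxr2 stood at 12567, 7377 and 8634 in BS and 0, 0.986 and 0 in AG, 30541-fold higher, counting interval 5481 to 1206340.0 (limma adjusted p = 6.26e-07). All 3 BS libraries were high and all 3 AG libraries were at or next to 0. Nf1, a GTPase-activating protein that switches RAS off, stood at 6239, 5045 and 4642 in BS and 1334, 1470.4 and 1588 in AG, a log2 change of 1.85 ± 0.27 (SE, limma adjusted p = 0.00109). Its groups did not overlap, and AG, the group labelled with the shRNA, was the low one. Trp53, with 2 annotated transcripts, stood at 29.4, 18.1 and 35.5 in BS and 23.3, 23.7 and 34.8 in AG and missed the threshold (limma adjusted p = 0.992). A Trp53 value does not check a deletion of part of the gene or an altered protein.

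Across all genes tested, 3712 were called at an adjusted p under 0.05 in limma (35.1%). Of these, 1652 were higher in BS (15.6% of genes tested) and 2060 were lower (19.5%), and these percentages are the background for every gene group below. Changes of at least 2-fold were seen in 1357 of the higher and 1713 of the lower genes. The AG and BS libraries did not overlap for 6181 of the 10576 genes tested. Lack of overlap, stated for many genes below, was therefore common and does not by itself set a gene apart. The balance of directions depended on the scaling: 44.5% of calls were higher in BS here, 59.1% after upper quartile rescaling, 52.2% after quantile normalization, 51.6% in edgeR and 51.4% in DESeq2. The median change of all genes was -0.03 here and 0.24 after upper quartile rescaling. That rescaling called 2283 of the 10576 genes higher and 1577 lower, the background for group counts given after it. The number of calls fell to 2451 without AG_1, 2427 without AG_2 and 2464 without AG_3, and 2275 of the 3712 calls were kept in each of the 9 fits with 1 library left out. Brackets after a gene group's count give the lowest and highest count over those 9 fits, and name the library where the count moved by over 1.5 times.

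**Figure D1:**
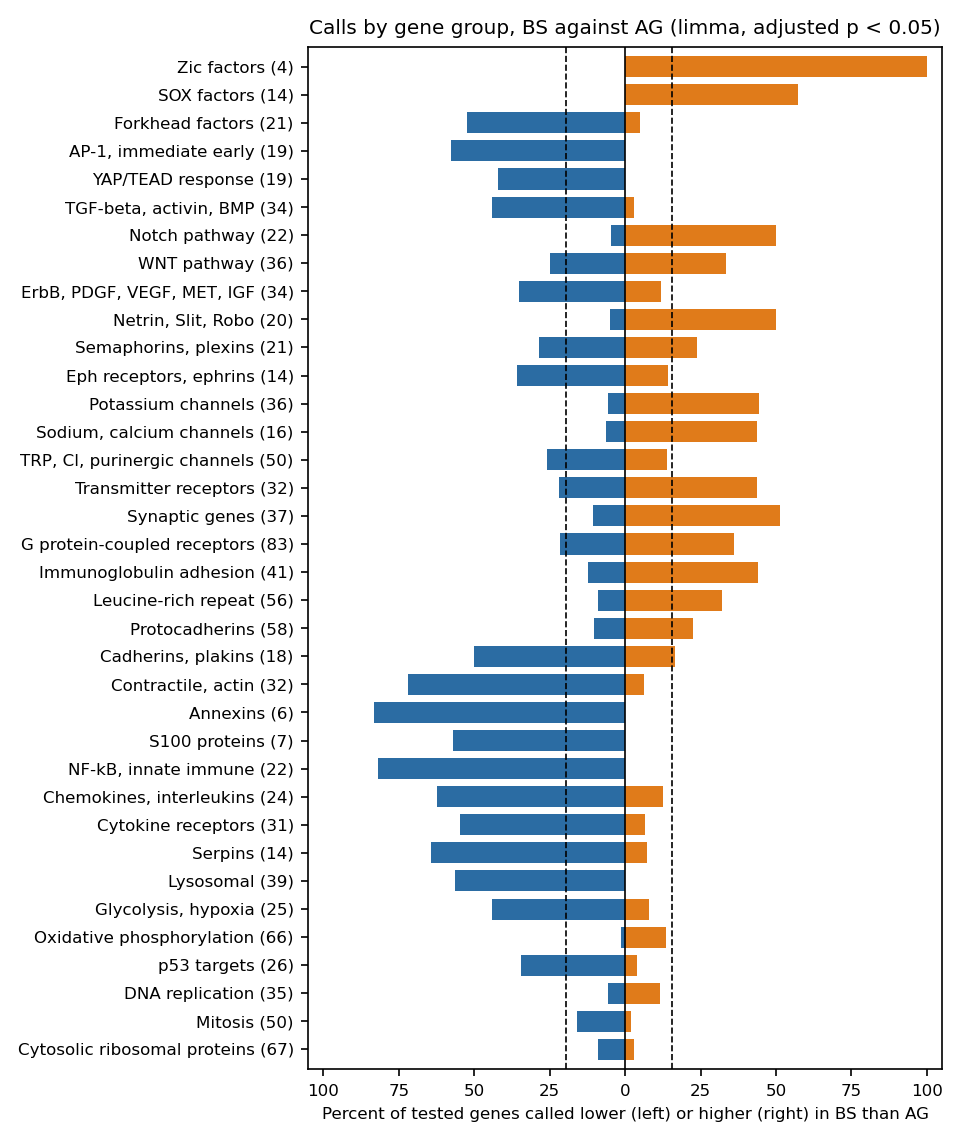
Share of tested genes called higher in BS (right, orange) and lower in BS (left, blue) in 36 gene groups, in percent on the horizontal axis, with the number of genes tested in brackets. Dashed lines mark the share over all 10576 genes, 15.6% higher and 19.5% lower. Zic factors, SOX factors, synaptic genes, the Notch pathway, the netrin, Slit and Robo genes and potassium channels reach furthest right. Annexins, innate immune genes and contractile genes reach furthest left.

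Several transcription factors of early neural tissue were higher in BS. Of the SOX genes, 8 of 14 tested genes rose (6 to 9) and 0 fell, with a median change of 2.89. Sox3, a SoxB1 factor of neural progenitors, stood at 362, 2785 and 2631 in BS and 0 in all 3 in AG, at least 662-fold higher (limma adjusted p = 0.00217). Sox1, its close relative, stood at 4299, 1095 and 1553 in BS and 46.7, 21.7 and 25 in AG, a log2 change of 6.00 ± 0.61 (SE, limma adjusted p = 0.00016). Sox21, which opposes SoxB1 factors, stood at 1459, 2389 and 1920.2 in BS and 17.5, 16.8 and 13.1 in AG, a log2 change of 6.82 ± 0.50 (SE, limma adjusted p = 2.82e-05). None of these genes overlapped between AG and BS, and BS_287 was the highest BS library for Sox1 and the lowest for Sox3 and Sox21. Sox8, a SoxE factor of glial precursors, lay at 16.3 to 18.7 in AG and at 2365 to 8382 in BS, and Sox12, a SoxC factor, at 279 to 399 in AG and 2216 to 4157 in BS.

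The Zic genes encode zinc-finger factors of the dorsal neural tube and the cerebellum, and all 4 of those reported here rose in BS (4 to 4). RefSeq annotates 2 transcripts each of Zic1 and Zic4. Zic1 stood at 3768, 2301 and 4992 in BS and 0 in all 3 in AG, at least 1268-fold higher (limma adjusted p = 1.8e-05). Zic2 stood at 719.6, 685 and 1429 in BS and 10, 13.8 and 17.4 in AG, a log2 change of 5.95 ± 0.36 (SE, limma adjusted p = 9.82e-06). Zic4 and Zic5 lay at 74.7 to 363 and 53.3 to 129 in BS, against 0 and 3.94 to 6.53 in AG. None of these overlapped between the groups, and BS_296 was the highest BS library in each case.

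In the list of Iroquois, MEIS, DLX, MSX, POU and related homeodomain factors 4 of 25 tested rose (4 to 6) and 5 fell (2 to 6, with 2 without AG_1 and 3 without AG_2 or AG_3), shares near those of all genes. Among those that rose were 3 POU factors of class III, which act with SOX proteins in neural progenitors. Pou3f4 stood at 1578, 1780.5 and 2407 in BS and 1.67, 2.96 and 3.27 in AG, a log2 change of 9.05 ± 1.95 (SE, limma adjusted p = 0.00784). Pou3f2 stood at 3498, 1304 and 968 in BS and 48.4, 43.4 and 71.9 in AG, a log2 change of 4.92 ± 0.84 (SE, limma adjusted p = 0.00247). Pou3f1 stood at 24.3, 834 and 769 in BS and 0.834, 0.986 and 0 in AG, 793-fold higher, counting interval 219 to 6553 (limma adjusted p = 0.00485), and BS_287 was far below the other BS libraries. Nr2e1, a nuclear receptor of neural stem cells, lay at 0 in AG and 6.90 to 306 in BS. Scrt1 and Prdm8, zinc-finger factors of differentiating neurons, lay at 0 and 6.67 to 10.9 in AG and at 16.0 to 98.1 and 111 to 207 in BS.

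Other factors were lower in BS. Of the forkhead genes, 11 of 21 tested fell (6 to 13, with 6 without AG_1 and 7 without AG_2) and only Foxr2 rose, with a median change of -1.23. Foxf1, a factor of mesenchyme, stood at 17.6, 34.1 and 33.5 in BS and 1225, 1099 and 1135 in AG, a log2 change of -5.35 ± 0.91 (SE, limma adjusted p = 0.00247). Foxq1 lay at 85.7 to 104 in AG and at 1.07 to 2.96 in BS. Foxj1, the master factor of motile cilia, stood at 67.1, 107 and 209.9 in BS and 2539.7, 2358 and 2042 in AG, a log2 change of -4.32 ± 0.48 (SE, limma adjusted p = 0.000265). Of the basic helix-loop-helix factors 7 of 30 tested rose (5 to 8) and 9 fell (7 to 10), and of the factors of epithelial to mesenchymal transition and neuronal zinc-finger factors 5 of 14 tested rose (4 to 6) and 2 fell (2 to 3). Among those that fell, Twist2, a factor of mesenchyme, lay at 112 to 119 in AG and at 0 in all 3 BS libraries. Scx, a tendon factor, stood at 15.1, 5.33 and 16.7 in BS and 1544, 1242 and 1211 in AG, a log2 change of -6.76 ± 0.51 (SE, limma adjusted p = 2.96e-05). Snai2, a factor of epithelial to mesenchymal transition, stood at 1.68, 3.20 and 2.96 in BS and 459, 433 and 399 in AG, a log2 change of -6.92 ± 0.57 (SE, limma adjusted p = 4.88e-05). Tbx18 and Prrx2, factors of pericytes and of mesenchyme, lay at 1693 to 1808 and 2873 to 3550.3 in AG and at 2.52 to 60.8 and 12.8 to 241 in BS. The vitamin D receptor gene Vdr lay at 334 to 360.2 in AG and at 0 to 14.8 in BS. No gene of this paragraph overlapped between the groups.

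Hox genes carry the positional code of the hindbrain and spinal cord, and they were read as a check of the brainstem label; the genes named here were chosen after their values were seen. Of 5 tested Hox genes limma called 0 (3 higher in BS without BS_287), with 0 at an unadjusted p under 0.05, edgeR called 0 and DESeq2 called 4 higher in BS. Hoxa3 stood at 0, 656 and 211 in BS and 8.34, 13.8 and 14.2 in AG. Hoxa5 stood at 0, 662 and 161 in BS and 8.34, 5.91 and 3.27 in AG. BS_295 and BS_296 thus held Hoxa reads and BS_287 held 0 for both genes. In the olfactory bulb libraries OB_257, OB_287 and OB_295, Hoxa3 stood at 14.4, 3.81 and 498 and Hoxa5 at 3.32, 16.2 and 465, with OB_295 in the range of the BS libraries that held them. The Hoxa level did not follow the site labels, since BS_287 lacked it and OB_295 had it. It was low in BS_287 and OB_287 and high in BS_295 and OB_295, and the labels do not say whether a shared number marks a shared mouse.

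**Figure D2:**
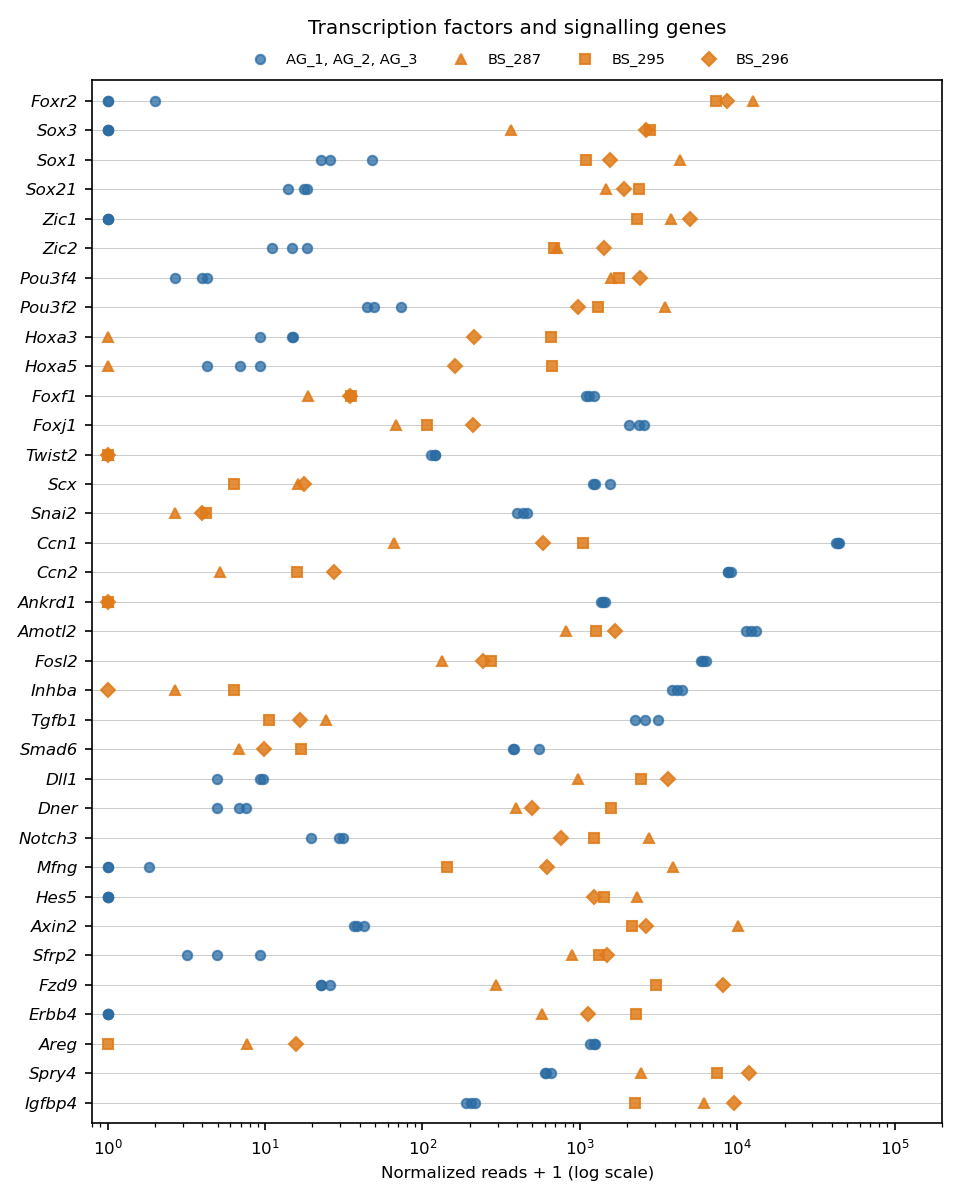
Normalized reads + 1 (log scale) in each AG library (blue circles) and BS library (orange: triangle BS_287, square BS_295, diamond BS_296) for transcription factors and signalling genes named in the text. AG and BS do not overlap for any gene except Hoxa3 and Hoxa5, where BS_287 lies at 0 reads.

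Several response genes of YAP and TEAD were lower in BS. YAP and its partner TEAD switch on genes of spreading cells that pull on their substrate, and of 19 tested genes of this list 8 fell (7 to 9) and 0 rose (0 to 2, with 2 without OB_257 and 1 without OB_287 or OB_295, and 2 in DESeq2), with a median change of -2.66. Ccn1, a secreted matrix-associated protein, stood at 64.6, 1040.1 and 584 in BS and 44459, 43406 and 42682 in AG, a log2 change of -6.99 ± 1.02 (SE, limma adjusted p = 0.00113). Ccn2, its relative, stood at 4.19, 14.9 and 26.6 in BS and 9146, 8749 and 8799.8 in AG, a log2 change of -9.40 ± 1.23 (SE, limma adjusted p = 0.000624). Ankrd1, an ankyrin-repeat protein of stretched muscle and fibroblasts, stood at 0 in all 3 BS libraries and 1363, 1398 and 1442 in AG, at least 485-fold lower (limma adjusted p = 1.2e-06). Amotl2, an angiomotin that feeds back on YAP, stood at 819, 1274 and 1669 in BS and 13249.8, 12257 and 11424 in AG, a log2 change of -3.35 ± 0.60 (SE, limma adjusted p = 0.00322). All 3 AG libraries lay above all 3 BS libraries for each of these, and BS_287 was the lowest BS library for Ccn1, Ccn2 and Amotl2. The 250 bases before the RefSeq start sites (GRCm38.p6) of Ankrd1, Ccn1 and Amotl2 are shown, 5′ to 3′ in the sense of the gene, as members of the list with large changes whose window holds the TEAD-type letters GGAATG on either strand. Capitals mark the matches.
Ankrd1, chr19:36119845-36120094, minus strand: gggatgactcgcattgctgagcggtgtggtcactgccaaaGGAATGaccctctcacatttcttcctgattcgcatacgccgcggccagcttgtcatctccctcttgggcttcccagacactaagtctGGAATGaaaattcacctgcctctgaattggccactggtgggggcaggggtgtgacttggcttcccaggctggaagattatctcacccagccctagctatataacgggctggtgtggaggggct
Ccn1, chr3:145649986-145650235, minus strand: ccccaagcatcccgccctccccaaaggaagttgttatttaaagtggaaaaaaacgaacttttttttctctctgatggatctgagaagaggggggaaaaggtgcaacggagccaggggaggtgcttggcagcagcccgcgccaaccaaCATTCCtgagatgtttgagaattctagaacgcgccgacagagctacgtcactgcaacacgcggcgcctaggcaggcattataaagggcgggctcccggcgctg
Amotl2, chr9:102717554-102717803, plus strand: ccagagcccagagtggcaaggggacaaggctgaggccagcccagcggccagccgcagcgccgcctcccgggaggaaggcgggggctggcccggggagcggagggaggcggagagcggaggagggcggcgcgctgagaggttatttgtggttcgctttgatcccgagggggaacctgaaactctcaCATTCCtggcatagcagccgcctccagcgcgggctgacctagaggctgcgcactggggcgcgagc
Ankrd1 held 2 matches, at 210 and 123 bases before its start, Ccn1 1 match at 103 bases and Amotl2 1 match at 65 bases. Such letters stood in 9 of 17 windows of the tested list (52.9%) and in 12.6% of all 32851 windows of the RefSeq table. These 17 windows belong to tested members whether they fell or not. The list is one of YAP and TEAD response genes, so such an excess can come with the choice of its members. It was not read as a result about the fall. Among genes lower in BS the share was 11.6% and among genes higher in BS 10.9%, so the motif did not part the directions over all genes. A match is a run of letters and does not show that TEAD binds there.

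AP-1 and immediate early genes, which overlap with the former list in Ccn1 and Ccn2, fell in 11 of 19 tested cases (8 to 12) and rose in 0 (0 to 1, with 1 without OB_257 or OB_295). Fosl1 and Fosl2, partners of JUN proteins in AP-1, stood apart between groups: Fosl2 stood at 132, 271 and 240.4 in BS and 5916, 6378 and 6058 in AG, a log2 change of -4.89 ± 0.32 (SE, limma adjusted p = 1.33e-05). Fosl1 lay at 171 to 304 in AG and at 1.68 to 2.96 in BS, and Junb at 3224 to 5929.9 in AG and 124 to 627 in BS. Handling of cells can induce immediate early genes, and its part in these values was not tested.

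Of the TGF-beta, activin and BMP list, 15 of 34 tested genes fell (12 to 19) and 1 rose (0 to 5, with 0 without AG_2, 5 without BS_287 and 2 without BS_295 or OB_257, and 4 in edgeR and 7 in DESeq2), with a median change of -1.61. Inhba, the subunit of activin A, stood at 1.68, 5.33 and 0 in BS and 3861, 4146 and 4457 in AG, a log2 change of -10.66 ± 0.72 (SE, limma adjusted p = 1.64e-05). Tgfb1, the ligand itself, stood at 23.5, 9.60 and 15.8 in BS and 3128, 2595 and 2236 in AG, a log2 change of -7.33 ± 0.38 (SE, limma adjusted p = 5.12e-06). Smad6, an inhibitory SMAD induced by BMP, stood at 5.87, 16.0 and 8.87 in BS and 551, 374 and 383 in AG, a log2 change of -5.36 ± 0.64 (SE, limma adjusted p = 0.000388). For all of these every BS library lay far below every AG library.

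Several Notch pathway genes were higher in BS, with 11 of 22 tested called higher (8 to 12) and 1 lower (0 to 1, with 0 without AG_1 or AG_2 or AG_3 or BS_287 or BS_295 or BS_296), and a median change of 1.54. Ligands, receptors and a response gene took part. Dll1, a ligand with 2 annotated transcripts, stood at 975, 2446 and 3635 in BS and 8.34, 3.94 and 8.71 in AG, a log2 change of 8.07 ± 1.01 (SE, limma adjusted p = 0.000475). Dner, a neuronal ligand, stood at 390.0, 1584 and 496 in BS and 5.84, 3.94 and 6.53 in AG, a log2 change of 6.74 ± 1.30 (SE, limma adjusted p = 0.00463). Notch3, a receptor, stood at 2767, 1237 and 761 in BS and 28.3, 18.7 and 30.5 in AG, a log2 change of 5.71 ± 0.44 (SE, limma adjusted p = 3.42e-05). Mfng, a glycosyltransferase that tunes the receptors, stood at 3909.9, 143 and 614 in BS and 0.834, 0 and 0 in AG, 5398-fold higher, counting interval 968 to 213233 (limma adjusted p = 0.000387). Hes5, the response gene of neural progenitors with 2 annotated transcripts, stood at 2293, 1433 and 1225 in BS and 0 in all 3 in AG, at least 567-fold higher (limma adjusted p = 0.000134). None of the 5 genes overlapped between groups, and BS_287 was the highest BS library for Notch3, Mfng and Hes5 and the lowest for Dll1 and Dner. The RBPJ-type letters TGGGAA, on either strand, stood in 4 of 20 windows of the tested list (20%) against 21.6% of all windows.

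Among WNT ligands, receptors and feedback genes, 12 of 36 tested rose (8 to 12) and 9 fell (6 to 10). Axin2, a feedback inhibitor that canonical WNT signalling induces, stood at 10152, 2149.6 and 2646 in BS and 37.5, 35.5 and 41.4 in AG, a log2 change of 6.63 ± 0.77 (SE, limma adjusted p = 0.000333). Sfrp2, a secreted WNT modulator, stood at 894, 1324 and 1481 in BS and 8.34, 3.94 and 2.18 in AG, a log2 change of 7.84 ± 1.19 (SE, limma adjusted p = 0.00136). Fzd9, a receptor, stood at 291, 3028 and 8174 in BS and 25, 21.7 and 21.8 in AG, a log2 change of 6.35 ± 1.06 (SE, limma adjusted p = 0.00221). BS_287 was the highest BS library for Axin2 and the lowest for Sfrp2 and Fzd9. The ligands divided: Wnt3 lay at 0 in AG and at 31.0 to 57.1 in BS, while Wnt10b lay at 308 to 387 in AG and 0 to 0.985 in BS and the antagonist Dkk2 at 384 to 404 in AG and 0 to 3.94 in BS.

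Growth factor genes held calls in both directions, read beside the 15.6% higher and 19.5% lower of all genes. Of the ligands and receptors of the ErbB, PDGF, VEGF, MET, TAM and IGF families, 12 of 34 tested fell (10 to 14) and 4 rose (2 to 6, with 2 without AG_1 or AG_2 or AG_3 or BS_296). The 35.3% that fell was above the share of all genes, and the 11.8% that rose was below it. The ErbB system changed its parts: Erbb4, a neuregulin receptor, stood at 575, 2289 and 1131 in BS and 0 in all 3 in AG, at least 458-fold higher (limma adjusted p = 2.96e-06). Areg, a ligand of the EGF receptor, stood at 6.71, 0 and 14.8 in BS and 1226, 1152 and 1253 in AG, a log2 change of -7.93 ± 0.86 (SE, limma adjusted p = 0.000225), and Btc, another such ligand, lay at 169.5 to 210.2 in AG and at 0 to 0.839 in BS. Igfbp4, which binds insulin-like growth factors, was the only called gene of 5 tested binding proteins, at 6194, 2254 and 9529 in BS and 214, 201 and 189 in AG, a log2 change of 4.66 ± 0.81 (SE, limma adjusted p = 0.00286). In the list of the FGF pathway and MAPK feedback 6 of 27 tested rose (3 to 8, with 3 without AG_1 or AG_2 or AG_3) and 3 fell (3 to 6, with 6 without BS_287). There the 22.2% that rose was above the share of all genes, and the 11.1% that fell was below it. The ligand gene Fgf2 lay at 131 to 144 in AG and at 9.85 to 21.0 in BS. The tested Sprouty genes, feedback inhibitors that RAS and MAPK signalling induces, were higher: Spry4 stood at 2456, 7435 and 11887 in BS and 608, 654 and 596 in AG, a log2 change of 3.28 ± 0.92 (SE, limma adjusted p = 0.0241), and Spry2 at 2898, 6466 and 9248 and 756, 722 and 736, a log2 change of 2.92 ± 0.84 (SE, limma adjusted p = 0.0277). Both had their lowest BS level in BS_287. Spry4 was not called without AG_1 (adjusted p = 0.0717), AG_2 (adjusted p = 0.0667), AG_3 (adjusted p = 0.0722), BS_295 (adjusted p = 0.0651) or BS_296 (adjusted p = 0.0814), and Spry2 was not called without AG_1 (adjusted p = 0.0775), AG_2 (adjusted p = 0.0778), AG_3 (adjusted p = 0.0782), BS_295 (adjusted p = 0.0706) or BS_296 (adjusted p = 0.0893). Among RAS-family genes Rras2 lay at 2942 to 3121 in AG and at 112 to 371 in BS and Rasl11b at 10.9 to 16.8 in AG and 104 to 704 in BS.

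Axon guidance genes changed in both directions by family. Of the netrin, Slit, Robo and related genes, 10 of 20 tested rose (8 to 10) and 1 fell (0 to 2, with 0 without AG_1 or AG_2 or AG_3 or BS_287 or BS_295 and 2 without BS_296 or OB_295). Dcc, the netrin receptor, stood at 3378, 1032 and 1944 in BS and 1.67, 0 and 2.18 in AG, a log2 change of 9.86 ± 0.53 (SE, limma adjusted p = 5.89e-06). Draxin, a secreted ligand of DCC, stood at 2810.4, 1894 and 8423 in BS and 24.2, 21.7 and 22.9 in AG, a log2 change of 7.22 ± 0.50 (SE, limma adjusted p = 1.88e-05). Rtn4rl1, a relative of the Nogo receptor, and Dpysl4, a collapsin response mediator, lay at 0.986 to 2.50 and 10.8 to 22.9 in AG and at 113 to 159.6 and 565 to 981 in BS. Among semaphorins and plexins 5 of 21 tested rose and 6 fell. Sema5b stood at 1573, 2714 and 2822 in BS and 21.7, 28.6 and 17.4 in AG, a log2 change of 6.63 ± 1.12 (SE, limma adjusted p = 0.00235), whereas Plxnd1, a receptor of vascular guidance, stood at 811, 892 and 1056 in BS and 5070.3, 4723 and 4290.5 in AG, a log2 change of -2.36 ± 0.24 (SE, limma adjusted p = 0.000146). Of the Eph receptors and ephrins 5 of 14 tested fell (3 to 6, with 3 without AG_1 or AG_2 or AG_3 or BS_295 or BS_296) and 2 rose (1 to 3, with 1 without AG_1 or AG_2 or AG_3 or BS_287 or BS_296). Epha2, which is also on the p53 target list, stood at 21.0, 86.4 and 51.2 in BS and 7639, 7344 and 6803 in AG, a log2 change of -7.29 ± 0.48 (SE, limma adjusted p = 1.51e-05). The ligand gene Efna2 lay at 10.9 to 23.3 in AG and at 213 to 367 in BS. Every gene named here was separated between the groups.

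Of the potassium channel genes, 16 of 36 tested rose (15 to 20) and 2 fell (2 to 2), with a median change of 3.30. Below the limit for testing were 27 of the 63 in the table. Kcna2, Kcnc1 and Kcnk1 had no reads in AG and were tested only through tumour libraries. Kcna2, a delayed rectifier of axons, stood at 4929.7, 556 and 1931 in BS and 0 in all 3 in AG, at least 850.0-fold higher (limma adjusted p = 4.84e-05). Kcnc1, a channel of fast-firing neurons with 2 annotated transcripts, stood at 3943, 953 and 1983 in BS and 0 in all 3 in AG, at least 788-fold higher (limma adjusted p = 0.0056). Kcnj10, the inward rectifier by which glia buffer potassium, stood at 637, 1252 and 4651 in BS and 2.50, 0 and 1.09 in AG, a log2 change of 9.64 ± 0.85 (SE, limma adjusted p = 7.01e-05). BS_287 was the highest BS library for both voltage-gated channels and the lowest for Kcnj10. The leak channel genes Kcnk1 and Kcnk5 lay at 269.9 to 335 and 153 to 204 in BS against 0 and 0.986 to 2.50 in AG.

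Of the sodium and calcium channel genes, 7 of 16 tested rose (5 to 8) and 1 fell (0 to 2, with 0 without AG_1 or AG_2 or AG_3 and 2 without OB_295). Below the limit for testing were 19 of the 35 in the table. Unc79, a partner of the sodium leak channel, stood at 66.3, 1010.3 and 534 in BS and 0 in all 3 in AG, at least 185-fold higher (limma adjusted p = 0.000484). Cacng4, an auxiliary subunit of AMPA receptors and calcium channels, stood at 205, 1019 and 520.2 in BS and 0.834, 0 and 2.18 in AG, 573-fold higher, counting interval 196 to 2783 (limma adjusted p = 7.46e-05). Hcn3, a pacemaker channel gene, lay at 17.4 to 26.6 in AG and at 175 to 299 in BS. In the list of TRP, chloride, purinergic and mechanosensitive channels 13 of 50 tested fell (10 to 15). There 7 rose (4 to 10, with 4 without AG_3). The 14% that rose was near the 15.6% of all genes, and 26% fell against 19.5% of all genes. Trpv4, an osmosensitive channel of astrocytes and other cells, stood at 9.23, 9.60 and 19.7 in BS and 3298, 3310.5 and 2831 in AG, a log2 change of -7.91 ± 1.10 (SE, limma adjusted p = 0.00084). All 3 BS libraries lay far below all 3 AG libraries for Trpv4.

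Of the subunit genes for glutamate, GABA, glycine and acetylcholine receptors, 14 of 32 tested rose (11 to 16) and 7 fell (7 to 8). Below the limit for testing were 21 of the 53 in the table. The GABA-A subunit genes Gabrg1 and Gabra2 stood at 0 in every AG library. Gabrg1 stood at 470.5, 2826 and 526 in BS, at least 438-fold higher (limma adjusted p = 0.000454), and Gabra2 at 88.1, 1703 and 790.2, at least 295.8-fold higher (limma adjusted p = 0.00105). Both were highest in BS_295 and lowest in BS_287. The nicotinic subunit Chrna4 stood at 421, 186 and 91.6 in BS and 0, 0.986 and 0 in AG, 766-fold higher, counting interval 137 to 30293 (limma adjusted p = 9.9e-05). The GABA-A subunit Gabrd and the nicotinic subunit Chrnb1 of muscle were the reverse, at 168 to 183 and 685 to 744 in AG and 0 to 2.52 and 14.9 to 53.7 in BS.

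Synaptic vesicle, release and postsynaptic genes had 19 of 37 tested higher (15 to 21) and 4 lower (1 to 4, with 2 without AG_1 or AG_2 and 1 without AG_3), with a median change of 3.10 (2.47 when genes without a read in a group take their bound). Below the limit for testing were 10 of the 47 in the table. Camkv, a kinase-like protein of dendritic spines, stood at 1249.6, 427 and 566 in BS and 1.67, 0 and 0 in AG, 1227-fold higher, counting interval 339 to 10138 (limma adjusted p = 1.71e-05). Rims3, an active zone protein, stood at 677, 325 and 498 in BS and 0.834, 5.91 and 3.27 in AG, a log2 change of 6.99 ± 0.67 (SE, limma adjusted p = 0.000112). Cplx1, which clamps vesicle fusion, stood at 93.9, 226 and 336 in BS and 2.50, 0.986 and 0 in AG, a log2 change of 6.67 ± 1.39 (SE, limma adjusted p = 0.00666). Syp, the vesicle protein synaptophysin, lay at 30 to 40.3 in AG and at 244 to 847 in BS. Unc13c, a priming factor, went the other way, at 0, 0 and 16.7 in BS and 1091, 1169.8 and 1141 in AG, a log2 change of -8.76 ± 1.2 (SE, limma adjusted p = 0.000777). Of 7 neuron markers in the table the summed level was 4486 to 6635 in BS and 1062 to 1089 in AG. Rbfox3 and Snap25, with 6 and 5 annotated transcripts, were at 0 in AG and at 13.4 or less in BS, and their levels were not read. The part of neuronal cells among the BS cells was not tested.

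**Figure D3:**
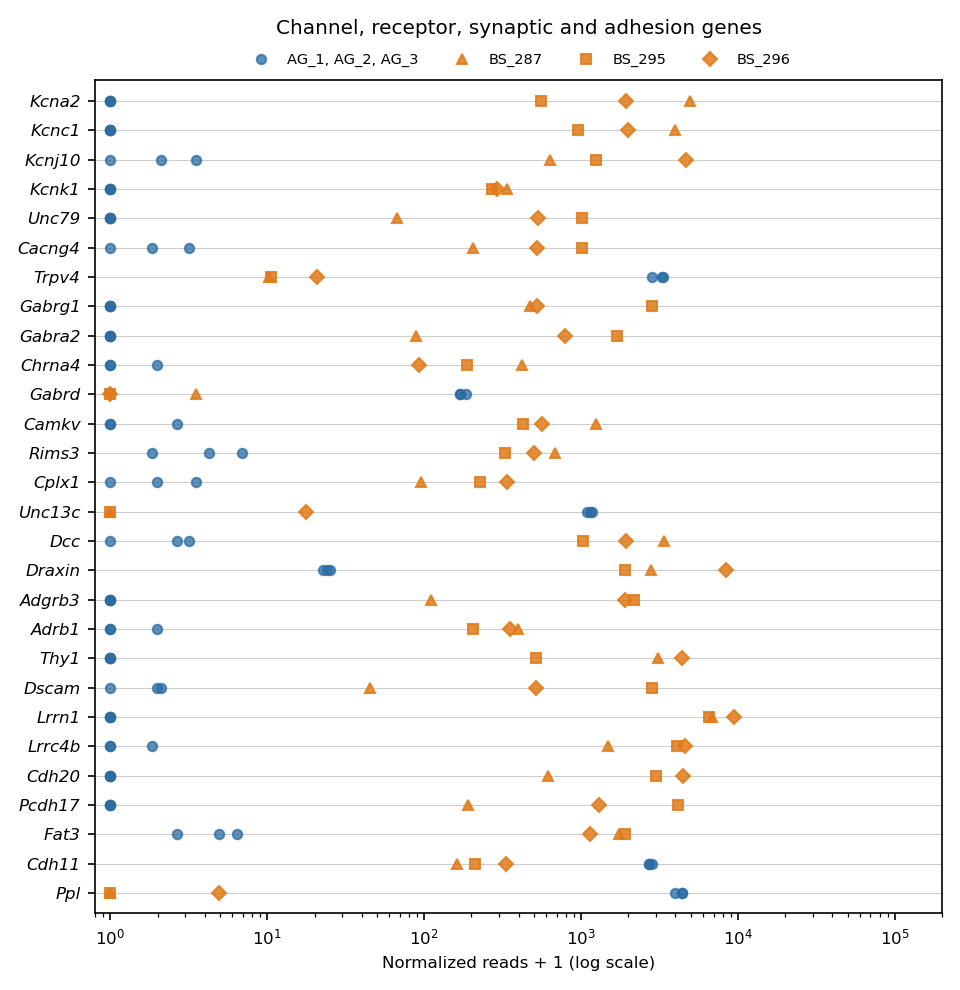
Normalized reads + 1 (log scale) in each AG library (blue circles) and BS library (orange: triangle BS_287, square BS_295, diamond BS_296) for channel, receptor, synaptic and adhesion genes named in the text. Most of these genes lie at or near 0 reads in AG and far above in BS, while Trpv4, Gabrd, Unc13c, Cdh11 and Ppl run the other way.

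Receptors coupled to G proteins divided, with 30 of 83 tested higher (14 to 33, with 17 without AG_1 or AG_3, 14 without AG_2 and 18 without BS_296) and 18 lower (15 to 22). Below the limit for testing were 69 of the 152 in the table. Adgrb3, an adhesion receptor of synapses, stood at 109, 2186 and 1912 in BS and 0 in all 3 in AG, at least 482-fold higher (limma adjusted p = 0.000236). Adrb1, the beta-1 adrenergic receptor, stood at 398, 205 and 349.8 in BS and 0, 0.986 and 0 in AG, 1017-fold higher, counting interval 182 to 40207 (limma adjusted p = 0.000236). F2rl1, a receptor that proteases activate, stood at 0, 7.47 and 39.4 in BS and 1639, 1622 and 1506 in AG, a log2 change of -7.83 ± 1.56 (SE, limma adjusted p = 0.00534). Gprc5a, a retinoic acid-inducible orphan receptor, lay at 2728 to 2956 in AG and at 0 to 0.985 in BS. Downstream of such receptors, the phosphodiesterase gene Pde3a rose, with 167 to 1043 in BS against 0 to 5.91 in AG. Pde8a, another phosphodiesterase gene, fell, with 35.5 to 44.8 in BS against 7068 to 7410.4 in AG. Adcy5, an adenylyl cyclase, rose, with 240.0 to 307 in BS against 18.5 to 41.4 in AG. None of these genes overlapped between the groups.

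Cell surface genes changed by class. In the immunoglobulin, contactin and neurexin class 18 of 41 tested rose (15 to 21) and 5 fell (4 to 5), with a median change of 2.21 (1.48 when genes without a read in a group take their bound). Thy1, a glycoprotein of neurons and some stromal cells, stood at 3094, 513 and 4380.3 in BS and 0 in all 3 in AG, at least 915-fold higher (limma adjusted p = 0.0037). Dscaml1 and Dscam, homophilic adhesion proteins of developing neurites, stood at 138, 1146 and 658 and 44.4, 2845 and 517 in BS, and at 0 and 0 to 1.09 in AG. Vcam1, the vascular cell adhesion molecule, fell instead, at 26.8, 905 and 352 in BS and 18310.1, 18944 and 20283 in AG, a log2 change of -6.53 ± 1.5 (SE, limma adjusted p = 0.0104). Among leucine-rich repeat proteins 18 of 56 tested rose (14 to 20) and 5 fell (5 to 7). Lrrn1 stood at 6808, 6557 and 9461 in BS and 0 in all 3 in AG, at least 2616-fold higher (limma adjusted p = 4.31e-06), and Lrrc4b, a synaptic organiser, at 1479, 4061 and 4588 and 0.834, 0 and 0, 10187-fold higher, counting interval 1828 to 402389 (limma adjusted p = 2.14e-06). The BS libraries lay close together for Lrrn1.

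Cadherins and junction genes switched members. Among classical and desmosomal cadherins and plakins, 9 of 18 tested fell (9 to 10) and 3 rose (1 to 4, with 1 without AG_1 or AG_2 or AG_3). Cdh20, a classical cadherin of the neural tube, stood at 617, 3005 and 4463 in BS and 0 in all 3 in AG, at least 927-fold higher (limma adjusted p = 8.42e-06). Cdh11, the mesenchymal cadherin, stood at 161, 209 and 331 in BS and 2716, 2725 and 2819 in AG, a log2 change of -3.62 ± 0.52 (SE, limma adjusted p = 0.000997). Ppl, a plakin of desmosomes, stood at 0, 0 and 3.94 in BS and 4392, 4424 and 3992 in AG, a log2 change of -11.29 ± 0.71 (SE, limma adjusted p = 1.2e-05), and Jup, which links cadherins to filaments, at 470.5, 321 and 1517 and 7373, 6759.9 and 6113, a log2 change of -3.46 ± 0.71 (SE, limma adjusted p = 0.00644). The claudin Cldn1 lay at 2390.5 to 2526 in AG and at 0 to 3.94 in BS. Among protocadherins 13 of 58 tested rose (10 to 15) and 6 fell (5 to 9). Pcdh17 stood at 189, 4134 and 1304 in BS and 0 in all 3 in AG, at least 645-fold higher (limma adjusted p = 0.000155), and Fat3, a large atypical cadherin, at 1757, 1913 and 1146 and 1.67, 3.94 and 5.44, a log2 change of 8.48 ± 0.75 (SE, limma adjusted p = 7.14e-05). Of the clustered protocadherins, Pcdhb11 and Pcdhb6 rose, with 55.2 to 157 and 25.6 to 67.2 in BS against 1.97 to 5.84 and 0 to 3.34 in AG, while Pcdhga12 fell, with 11.7 to 34.1 in BS against 328 to 383 in AG. Clustered protocadherin genes share sequence, and reads that fit several copies were counted in a way not given in the sources used here.

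Of 8 tested syndecans and glypicans, 4 fell (4 to 4) and 2 rose (2 to 2). Sdc4, a syndecan of focal adhesions, stood at 222, 351 and 286.7 in BS and 13555, 13440.0 and 13688 in AG, a log2 change of -5.58 ± 1.09 (SE, limma adjusted p = 0.00493). Gpc3, an oncofetal glypican, stood at 12.6, 470.5 and 637 in BS and 0.834, 0 and 0 in AG, 1099-fold higher, counting interval 197 to 43433 (limma adjusted p = 0.00728), with BS_287 far below the other BS libraries. Of 16 tetraspanins 5 fell (5 to 6), among them Cd9, at 803, 1822 and 3697 in BS and 22128, 21354 and 23099 in AG, a log2 change of -3.66 ± 0.50 (SE, limma adjusted p = 0.000783).

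Transporter genes held calls in both directions, read beside the 15.6% higher and 19.5% lower of all genes. Shares higher and lower were 17.4% and 21.7% for cation, chloride, bicarbonate, zinc and phosphate transporters and 14.3% and 14.3% for ABC transporters. They were 31% and 10.3% for glutamate, amino acid and neurotransmitter transporters. Atp1b2, the glial beta subunit of the sodium pump, stood at 1522, 8925 and 13482 in BS and 9.17, 4.93 and 7.62 in AG, a log2 change of 9.46 ± 0.84 (SE, limma adjusted p = 7.22e-05). It was lowest in BS_287 among the BS libraries, and the groups did not overlap. Of the glucose, lactate, nucleotide-sugar and organic ion transporters, 12 of 43 tested rose (4 to 13, with 4 without AG_1, 5 without AG_2 or AG_3 or BS_296 and 7 without BS_295) and 8 fell (7 to 10). The 27.9% that rose was above the share of all genes, and the 18.6% that fell was near it. Slc2a1, the glucose transporter of most cells, lay at 3473 to 4121 in AG and at 980.3 to 1219 in BS, and Slc2a13, the proton and myo-inositol transporter, at 10.8 to 22.9 in AG and 165 to 2287 in BS.

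Contractile and actin-linked genes were lower in BS. Of the smooth muscle and actin list, 23 of 32 tested fell (21 to 27) and 2 rose (1 to 2, with 1 without AG_1 or AG_2), with a median change of -2.67. Tagln, an actin-bundling protein of smooth muscle, stood at 36.1, 30.9 and 53.2 in BS and 6345, 6149 and 6264 in AG, a log2 change of -7.29 ± 0.29 (SE, limma adjusted p = 1.43e-06). Cnn2, a calponin of non-muscle cells, stood at 468, 242 and 759 in BS and 20786, 19133 and 17730.3 in AG, a log2 change of -5.44 ± 0.41 (SE, limma adjusted p = 2.95e-05). Acta2, smooth muscle actin, is also a marker of pericytes and myofibroblasts, and lay at 52507 to 55942 in AG and at 4.19 to 32.5 in BS. All AG libraries were high and all BS libraries low for these genes. Regulators of the small GTPases that steer actin followed in part, with 26 of 86 tested lower (17 to 31, with 17 without AG_1 or AG_2 or AG_3) and 15 higher (8 to 18, with 8 without AG_2 and 9 without AG_3). Arhgef5, an exchange factor for such GTPases, stood at 0, 1.07 and 0 in BS and 3232, 3281 and 3307 in AG, 10283-fold lower, counting interval 1845 to 406180.0 (limma adjusted p = 9.65e-07), while Arhgef26 lay at 65.3 to 93.4 in AG and at 581 to 1586 in BS. The tubulin genes Tubb4a and Tubb6 went opposite ways: Tubb4a, a tubulin of neurons and oligodendrocytes, rose, with 400.0 to 1257 in BS against 62.1 to 75.9 in AG, and Tubb6 fell, with 723 to 1775 in BS against 8067 to 9664 in AG. Stmn3 and Tppp, which act on microtubules in neurons and oligodendrocytes, lay at 0 to 1.67 and 3.34 to 4.93 in AG and at 138 to 515 and 157 to 292 in BS.

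The calcium-binding S100 proteins and annexins, which meet at the inner face of the plasma membrane, held large decreases in BS. Of the annexins 5 of 6 tested fell (5 to 6), with a median change of -7.22, and of the S100 genes 4 of 7 tested fell (3 to 4). Anxa2 stood at 153, 209 and 650.3 in BS and 40816, 38998 and 40348 in AG, a log2 change of -7.18 ± 0.49 (SE, limma adjusted p = 1.8e-05). S100a11 stood at 10.9, 14.9 and 22.7 in BS and 5787, 5849 and 5622 in AG, a log2 change of -8.45 ± 1.11 (SE, limma adjusted p = 0.000623). Anxa1, which is known for its anti-inflammatory action, stood at 0.839, 11.7 and 12.8 in BS and 19748, 19001 and 21019 in AG, a log2 change of -11.50 ± 0.84 (SE, limma adjusted p = 2.58e-05). Anxa3, Anxa5 and Anxa11 lay at 17055 to 17638, 26027 to 27605 and 754 to 1017 in AG and at 0 to 30.9, 80.0 to 346 and 44.8 to 88.7 in BS. None of the genes named here overlapped between the groups.

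Cytokine, chemokine and innate immune genes were lower in BS. Of the NF-kB and innate immune list, 18 of 22 tested fell (16 to 19) and 0 rose (0 to 0), with a median change of -3.75. Chemokines and interleukins had 15 of 24 tested lower (13 to 16) and 3 higher (3 to 3), and cytokine receptors 17 of 31 tested lower (16 to 18) and 2 higher (2 to 2). Tlr4, the receptor for bacterial lipopolysaccharide, stood at 2.52, 29.9 and 19.7 in BS and 2052, 2068 and 2298 in AG, a log2 change of -7.35 ± 0.79 (SE, limma adjusted p = 0.000206). Lcn2, an iron-carrier-binding protein of reactive astrocytes, stood at 0, 0 and 0.985 in BS and 1008, 877 and 901 in AG, 2938-fold lower, counting interval 527 to 116068 (limma adjusted p = 3.27e-06). Ccl2, which attracts monocytes, stood at 8.39, 18.1 and 26.6 in BS and 3409, 3120.3 and 3236 in AG, a log2 change of -7.58 ± 1.27 (SE, limma adjusted p = 0.00231). Cxcl1, which attracts neutrophils, stood at 0.839, 0 and 5.91 in BS and 678, 643 and 646 in AG, a log2 change of -8.14 ± 0.78 (SE, limma adjusted p = 0.000116). No AG library overlapped with a BS library for these genes, and the 3 macrophage markers in the table summed to 59.2 to 71.0 in AG and 32.0 to 103 in BS. Cxcl1 also shows the NF-kB-type letters GGNNTTTCC, in which N is any base, before its start (RefSeq, GRCm38.p6, capitals mark matches on either strand).
Cxcl1, chr5:90890995-90891244, plus strand: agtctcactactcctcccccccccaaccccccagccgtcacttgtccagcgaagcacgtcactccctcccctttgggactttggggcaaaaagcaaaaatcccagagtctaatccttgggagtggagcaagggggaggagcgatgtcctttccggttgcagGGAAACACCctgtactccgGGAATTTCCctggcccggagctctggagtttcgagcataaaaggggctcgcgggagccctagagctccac
It held 2 matches, at 89 and 70 bases before the start. Such letters stood in 10 of 19 windows of the tested innate immune list (52.6%), in 4.93% of all 32851 windows, in 5.84% of windows of genes lower in BS and in 4.96% of those of genes higher in BS. The innate immune list names NF-kB genes, and its windows are those of all tested members, so its excess can come with the choice of members. It was not read as a result about the fall. These values describe letters and show no binding.

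Genes of the TNF receptor superfamily split. Tnfrsf1b, TNF receptor 2, stood at 0, 3.20 and 0.985 in BS and 2861, 2979 and 2764 in AG, a log2 change of -10.47 ± 0.70 (SE, limma adjusted p = 1.52e-05), and Tnfrsf11b, a decoy receptor, lay at 4544 to 4626 in AG and at 2.52 to 5.91 in BS. Tnfrsf21, a death receptor of neural cells, was higher, at 1647, 3666 and 3594 in BS and 218, 165 and 159 in AG, a log2 change of 3.96 ± 0.46 (SE, limma adjusted p = 0.000332). Il17d, an IL-17 family cytokine, was also higher, at 202, 225 and 187 in BS and 31.7, 35.5 and 28.3 in AG, a log2 change of 2.65 ± 0.41 (SE, limma adjusted p = 0.00147). Complement C3, an abundant product of reactive astrocytes and fibroblasts, stood at 6.71, 0 and 0.985 in BS and 1373, 1296 and 1312 in AG, a log2 change of -9.06 ± 0.87 (SE, limma adjusted p = 0.00012). In the interferon and MHC class I list 13 of 31 tested fell (8 to 16, with 8 without AG_1), among them Gbp2 and Ifit3, which lay at 334 to 385 and 385 to 406 in AG and at 0 to 24.6 and 3.20 to 6.90 in BS. Rsad2, an antiviral enzyme, was the only rise, at 41.9, 58.7 and 225 in BS and 0.834, 0.986 and 0 in AG, 166-fold higher, counting interval 45.6 to 1375 (limma adjusted p = 0.000216).

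Of the serpins, a family of protease inhibitors, 9 of 14 tested fell (8 to 9), with a median change of -6.12 (-5.35 when genes without a read in a group take their bound). Serpine2, a protease inhibitor known from glia, was the only serpin called higher, at 963, 48837 and 46992 in BS and 685, 669 and 642 in AG, a log2 change of 4.29 ± 1.42 (SE, limma adjusted p = 0.046). It was near AG in BS_287 and far above in the other BS libraries, and was not called without AG_1 (adjusted p = 0.112), AG_2 (adjusted p = 0.112), AG_3 (adjusted p = 0.115), BS_295 (adjusted p = 0.133), BS_296 (adjusted p = 0.143), OB_287 (adjusted p = 0.0602) or OB_295 (adjusted p = 0.0589). Metalloproteinase genes went both ways, 10 of 35 tested higher (6 to 12, with 6 without AG_3) and 11 lower (7 to 12, with 7 without AG_2 or AG_3). Mmp15, a membrane-bound metalloproteinase, stood at 3997, 17898 and 16018 in BS and 243, 222 and 200.4 in AG, a log2 change of 5.56 ± 0.50 (SE, limma adjusted p = 8.41e-05). Mmp3, stromelysin 1, stood at 0 in all 3 BS libraries and 1728, 1582 and 1665 in AG, at least 574-fold lower (limma adjusted p = 6.26e-07). Timp3, an inhibitor, stood at 311, 1769 and 879.8 in BS and 30397, 31283 and 31072 in AG, a log2 change of -5.30 ± 0.69 (SE, limma adjusted p = 0.00058).

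Of the cathepsins, cystatins and lysosomal hydrolases, 22 of 39 tested fell (19 to 24) and 0 rose, with a median change of -1.16. Ctsd, the main aspartic protease of lysosomes, stood at 5095, 6805 and 7949.8 in BS and 71818, 70748 and 69464 in AG, a log2 change of -3.44 ± 0.20 (SE, limma adjusted p = 8.36e-06). Ctsz stood at 246, 526 and 2048 in BS and 11176, 10534 and 10323 in AG, a log2 change of -4.05 ± 0.69 (SE, limma adjusted p = 0.00239). The galectin Lgals1 lay at 77392 to 86307 in AG and at 3263 to 7509 in BS, and the neuronal pentraxin Nptx1 at 81.7 to 101 in AG and 1538 to 11323 in BS. Prostaglandin enzymes differed too: Ptgs2, the inducible cyclooxygenase, stood at 0.839, 9.60 and 20.7 in BS and 4952, 5429 and 5615 in AG, a log2 change of -9.47 ± 1.23 (SE, limma adjusted p = 0.000593), whereas Ptgds, the prostaglandin D2 synthase of the brain, stood at 1323, 1178 and 1231 in BS and 8.34, 6.90 and 15.2 in AG, a log2 change of 6.87 ± 0.57 (SE, limma adjusted p = 5.27e-05). The BS libraries differed little for Ptgds.

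**Figure D4:**
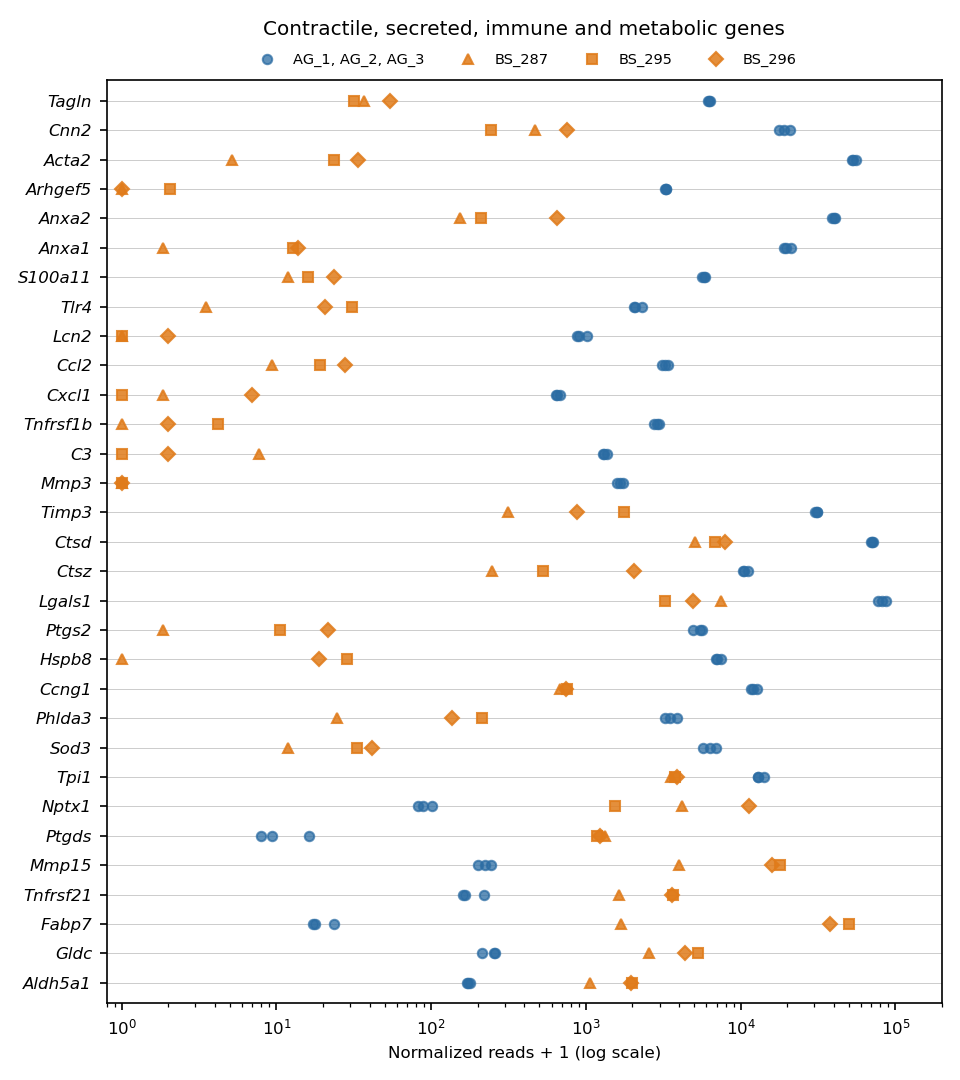
Normalized reads + 1 (log scale) in each AG library (blue circles) and BS library (orange: triangle BS_287, square BS_295, diamond BS_296) for contractile, membrane, secreted, immune and metabolic genes named in the text. AG lies above BS for the upper genes of the plot, and below it for Nptx1, Ptgds, Mmp15, Tnfrsf21, Fabp7, Gldc and Aldh5a1.

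Metabolic genes changed in both directions. In glycolysis and hypoxia response 11 of 25 tested fell (5 to 14, with 6 without AG_1 or BS_295, 5 without AG_2 or AG_3 and 7 without BS_296) and 2 rose. Tpi1, triosephosphate isomerase, stood at 3572, 3753 and 3886 in BS and 14193, 12918 and 13008 in AG, a log2 change of -1.84 ± 0.12 (SE, limma adjusted p = 1.71e-05). Pgk1, phosphoglycerate kinase, stood at 1299.9, 2872 and 2274 in BS and 6335, 5875 and 6530.4 in AG, a log2 change of -1.61 ± 0.30 (SE, limma adjusted p = 0.00357). Oxidative phosphorylation subunits showed 9 of 66 tested higher (2 to 10, with 4 without AG_1, 2 without AG_2 and 3 without AG_3 or BS_296) and 1 lower, a share of rises below the 15.6% of all genes, and 17 higher after upper quartile rescaling. In serine, glycine and one-carbon metabolism Gldc, the glycine decarboxylase, stood at 2544, 5313 and 4369 in BS and 258, 212 and 253 in AG, a log2 change of 4.01 ± 0.63 (SE, limma adjusted p = 0.00158), and Shmt1 at 4903, 3405 and 4303 and 1553, 1554 and 1619, a log2 change of 1.40 ± 0.20 (SE, limma adjusted p = 0.00112). Fabp7, which carries fatty acids in radial glia, stood at 1677, 50285 and 37669 in BS and 16.7, 22.7 and 16.3 in AG, a log2 change of 9.57 ± 1.74 (SE, limma adjusted p = 0.00344), with BS_287 the lowest BS library. Of the glutathione, NRF2 and aldehyde genes 22 of 58 tested fell (15 to 24) and 6 rose (3 to 8, with 3 without AG_2 or AG_3). Sod3, the secreted superoxide dismutase, stood at 10.9, 32.0 and 40.4 in BS and 6962, 6296 and 5702 in AG, a log2 change of -7.96 ± 0.62 (SE, limma adjusted p = 3.51e-05). Aldh5a1, which breaks down succinic semialdehyde from GABA, stood at 1057, 1970.4 and 1947 in BS and 169, 176 and 172 in AG, a log2 change of 3.20 ± 0.32 (SE, limma adjusted p = 0.000135).

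Glycan and sulfation enzymes rose in 16 and fell in 18 of 76 tested cases, shares near those of all genes. Those with large increases included enzymes of surface epitopes of neural precursors. St8sia1, the GD3 ganglioside synthase, stood at 1443, 3185 and 1555 in BS and 3.34, 2.96 and 6.53 in AG, a log2 change of 8.57 ± 0.48 (SE, limma adjusted p = 6.52e-06). Fut9, which makes the Lewis X epitope, stood at 4733, 4972 and 1317 in BS and 52.5, 57.2 and 63.2 in AG, a log2 change of 5.75 ± 0.47 (SE, limma adjusted p = 4.57e-05). Mgat5b, a brain N-acetylglucosaminyltransferase, stood at 174, 157 and 211 in BS and 0 in all 3 in AG, at least 62.1-fold higher (limma adjusted p = 8.47e-06).

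Several stress and p53 genes were lower in BS. Of the heat shock, chaperone and endoplasmic reticulum stress genes, 13 of 30 tested fell (9 to 15) and 1 rose (0 to 2, with 0 without AG_1 or AG_2 or AG_3 or BS_287 or BS_296 and 2 without OB_257). Hspb8, a small heat shock protein, stood at 0, 27.7 and 17.7 in BS and 7451, 6942 and 6999 in AG, a log2 change of -9.78 ± 1.56 (SE, limma adjusted p = 0.00172). Hsp90b1, the HSP90 of the endoplasmic reticulum, stood at 17589, 25283 and 11119 in BS and 53930.5, 55974 and 55778 in AG, a log2 change of -1.70 ± 0.30 (SE, limma adjusted p = 0.00321). Of the p53 target genes 9 of 26 tested fell (8 to 11) and 1 rose (0 to 2, with 0 without AG_1 or AG_2 or AG_3 and 2 without OB_257 or OB_287 or OB_295). Ccng1, cyclin G1, stood at 684, 752 and 745 in BS and 11975, 11715 and 12723 in AG, a log2 change of -4.06 ± 0.14 (SE, limma adjusted p = 1.14e-06). Phlda3, an inhibitor of AKT, stood at 23.5, 211 and 136 in BS and 3898, 3469 and 3249 in AG, a log2 change of -5.31 ± 0.90 (SE, limma adjusted p = 0.00244). The BS libraries lay close together for Ccng1. Both groups carry an altered p53, and no library with unaltered p53 was compared. Of the BCL2 and caspase families 10 of 22 tested fell (9 to 12) and 5 rose (1 to 5, with 1 without AG_1 or AG_2 or AG_3 or BS_295 and 2 without BS_296). Bid, a BH3 protein, stood at 173, 284 and 432 in BS and 1391, 1414 and 1375 in AG, a log2 change of -2.33 ± 0.32 (SE, limma adjusted p = 0.000808), while Hrk, a neuronal BH3 protein, stood at 763, 94.9 and 49.3 in BS and 0.834, 1.97 and 1.09 in AG, a log2 change of 6.10 ± 0.95 (SE, limma adjusted p = 0.00158).

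Genes of DNA replication and mitosis differed in few cases. Of the DNA replication genes 4 of 35 tested rose (1 to 5, with 1 without AG_1 or AG_2 or AG_3 or BS_296 or OB_295 and 2 without BS_295) and 2 fell (1 to 2, with 1 without AG_1 or AG_2 or AG_3 or BS_287 or BS_296), and of the mitosis genes 1 of 50 rose (0 to 1, with 0 without AG_1 or AG_2 or AG_3 or BS_287 or BS_296) and 8 fell (3 to 10, with 3 without AG_1 or AG_2 or AG_3 and 5 without BS_287 or BS_296), below the shares of all genes. After upper quartile rescaling 9 replication genes rose and 1 fell, where 2283 of all 10576 genes tested rose and 1577 fell. The share of replication genes that rose then lay above that of all genes, so its place depended on the scaling. Of the cyclins, CDKs, CDK inhibitors and RB family 5 of 28 tested rose (3 to 5, with 3 without AG_2 or AG_3). There 4 fell (2 to 5, with 2 without AG_1 or AG_2 or AG_3). These shares were 17.9% and 14.3%, beside 15.6% and 19.5% of all genes. Kif23, a kinesin of the dividing cell's midzone, stood at 2637, 2716 and 2671 in BS and 6550.3, 6756 and 7047 in AG, a log2 change of -1.34 ± 0.18 (SE, limma adjusted p = 0.000675). Mycn, the MYC gene of neural progenitors, stood at 449, 17.1 and 163 in BS and 0.834, 1.97 and 0 in AG, 238-fold higher, counting interval 81.0 to 1155 (limma adjusted p = 0.00481), and varied widely between BS libraries. Cdk5r1, the activator of CDK5 in neurons, stood at 638, 859.8 and 835 in BS and 82.5, 88.7 and 89.3 in AG, a log2 change of 3.14 ± 0.34 (SE, limma adjusted p = 0.00021).

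Chromatin and RNA genes changed in both directions. Of the Polycomb, BAF and chromatin regulators 16 of 88 tested rose and 7 fell (5 to 10). The rises ran from 8 to 18 with 1 library left out, with 9 without AG_1 or AG_2 and 8 without AG_3. The 18.2% that rose was near the 15.6% of all genes, and the 7.95% that fell was below the 19.5% of all genes. After upper quartile rescaling 25 rose. Tet1, which oxidises methylcytosine, stood at 1375, 2290.4 and 1663 in BS and 337, 473 and 403 in AG, a log2 change of 2.11 ± 0.32 (SE, limma adjusted p = 0.00144), and Kmt2c, an enhancer histone methyltransferase, at 3758, 7078 and 5263 and 1494, 1734 and 1743, a log2 change of 1.65 ± 0.23 (SE, limma adjusted p = 0.00084). Arid5b, a DNA-binding cofactor of a histone demethylase, fell, at 590.4, 682 and 575 in BS and 5915, 6058 and 6007 in AG, a log2 change of -3.28 ± 0.39 (SE, limma adjusted p = 0.000376). Of the RNA-binding proteins of stem cells and neurons 6 of 21 tested rose (4 to 6) and 6 fell (4 to 7). The neuronal splicing factor Nova2 stood at 2019, 1727 and 1772 in BS and 27.5, 35.5 and 22.9 in AG, a log2 change of 5.98 ± 0.24 (SE, limma adjusted p = 1.53e-06). The neuronal Elavl3 lay at 0.834 to 6.53 in AG and at 218 to 2193 in BS. The oncofetal Igf2bp2 fell instead, at 36.1, 52.3 and 128 in BS and 2554, 2413 and 2459 in AG, a log2 change of -5.29 ± 0.66 (SE, limma adjusted p = 0.000471), and its relative Igf2bp1 lay at 68.4 to 89.3 in AG and 0 to 0.985 in BS. Of the oncofetal and imprinted genes 3 of 23 tested rose (3 to 5, with 5 without BS_287 or OB_257) and 7 fell (6 to 8). The imprinted genes Peg12 and Mkrn3, which are neighbours in the region of Prader-Willi syndrome, lay at 372 to 456 and 50.1 to 67.0 in AG and at 1716 to 2773 and 198 to 1046 in BS. Cytosolic ribosomal protein genes were called in few cases, 2 of 67 higher (2 to 8, with 8 without BS_295 and 4 without OB_257) and 6 lower (2 to 6, with 2 without AG_1 or AG_2 or AG_3 and 3 without BS_295), and 9 higher and 2 lower after upper quartile rescaling.

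The BS libraries differed among themselves far more than the AG libraries. In BS_287, 128 genes lay more than 8-fold above both other BS libraries and 309 more than 8-fold below both. The same counts were 14 and 61 for BS_295, 36 and 9 for BS_296, and at most 1 for any AG library. The genes named in this paragraph were chosen after their values were seen. Neurod1, a factor of differentiating neurons, stood at 4202, 12.8 and 129 in BS, and Dll4, a Notch ligand, at 1612, 17.1 and 52.2. Both were high in BS_287 and low in the others. Lgr5, a receptor of WNT-responsive stem cells, stood at 7.55, 2098 and 1678 in BS, low in BS_287. These 3 genes stood at 3.27 or less in AG. Sox10, the factor of oligodendrocyte fate, stood at 3.35, 29.9 and 1511 in BS and 0.834, 0.986 and 2.18 in AG, high in BS_296 alone, and missed the threshold (limma adjusted p = 0.0899). Neurod1 was called higher (limma adjusted p = 0.0227), but not without AG_1 (adjusted p = 0.0677), AG_2 (adjusted p = 0.0661), AG_3 (adjusted p = 0.0674) or BS_296 (adjusted p = 0.0521). Lgr5 was called (limma adjusted p = 0.0164), but not without AG_2 (adjusted p = 0.0576), BS_295 (adjusted p = 0.0522) or BS_296 (adjusted p = 0.0579).

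**Figure D5:**
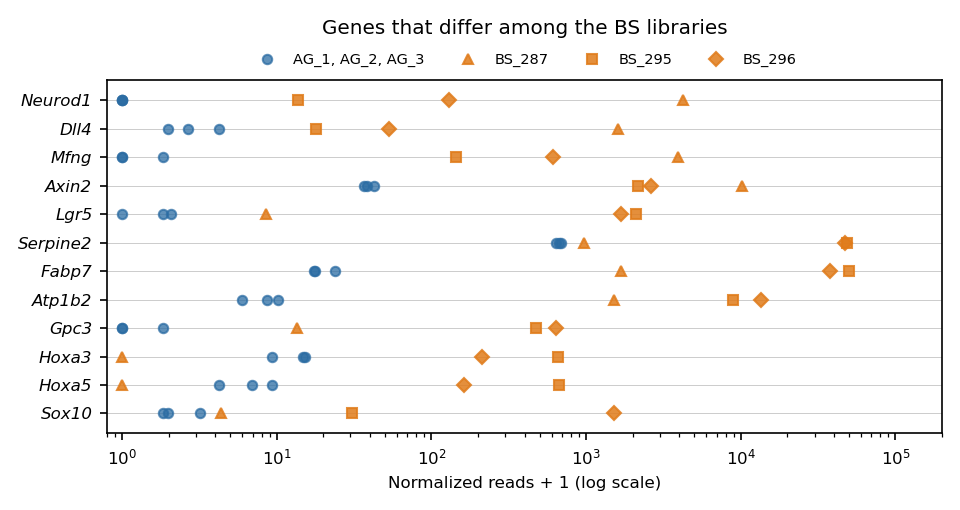
Normalized reads + 1 (log scale) for genes that differ among the BS libraries. Each BS library is in orange (triangle BS_287, square BS_295, diamond BS_296) and each AG library is a blue circle. Neurod1, Dll4, Mfng and Axin2 are highest in BS_287, and Lgr5, Serpine2, Fabp7, Atp1b2, Gpc3, Hoxa3 and Hoxa5 lowest there. Sox10 is high in BS_296 alone.

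The same genes were set beside the olfactory bulb tumour cells, which share the genotype label with BS. Between BS and OB limma called 0 genes (smallest adjusted p 0.0545), edgeR 0 and DESeq2 233, and 1019 genes (9.64%) had an unadjusted limma p under 0.05. No gene group above is therefore given as particular to the brainstem. For example, Zic1 stood at 211, 2534 and 1477 in OB_257, OB_287 and OB_295, Kcna2 at 1488, 10418 and 2155 and Tlr4 at 7.74, 6.66 and 21.7. A p that misses the threshold does not show that the sites are alike.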

How the data were processed

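RNA was sequenced from 9 mouse libraries, and per the submitters' processing notes the tools were bcl2fastq 1.8.4, HISAT2 2.1.0, featureCounts, Subread 1.6.2 and DESeq2 1.20.0 with the mouse build mm9. Their role and order, annotation, strand setting and the handling of reads that fit several transcripts were not given in the sources used here. Values of the deposited table are a signal, the reads of each of 16260 transcripts scaled by a size factor of the library (undoing the factor gave whole reads within 0.05 for 100.0% of values). Rows were named from RefSeq (16202) or GENCODE (41) tables, 17 had no name and were left out, and rows of a symbol were added. No gene coordinates of mm9 are given. Promoter windows are those of RefSeq on GRCm38.p6.

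limma 3.58.1 in R 4.3.3 tested log2(value + 1) with 3 group means over 9 libraries, a variance trend, two-sided tests and Benjamini-Hochberg adjustment over 10576 genes that reached 10 in at least 3 libraries. A fit to all 9 libraries shares 1 spread, although OB and BS vary more than AG. Alternatives were other pseudocounts, filters, scalings, variance models and minimum changes, the recovered reads in edgeR 4.0.16 and in DESeq2 1.42.0, the title number as a block, each library left out in turn and, added after the data were seen, genes with 1 annotated transcript. The method was tested on simulated reads. Floors of 3 reads per library equal 2.91 normalized reads in AG and 2.89 in BS. Intervals take in counting error alone, since without molecular identifiers reads are no independent molecules.

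The comparison and all gene lists were chosen with earlier results of these data known. Genes were named by rule: those of the genotype labels, the 15 largest called changes in each direction with a mean of at least 50 in the higher group, up to 6 called members of each list in each direction, all members of lists of at most 12 genes, and cell type markers. Not every gene the rule picks is given, and some genes are not reported here. Sequences credited to RefSeq were found for 8213 of the 10576 tested symbols. Figures were drawn with matplotlib 3.10.9.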

Additional observations from a re-analysis of the deposited data

How the results depend on the processing

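No called gene named in the report changed direction under any alternative. Trp53, which was not called, was -0.0075 in limma and 0.0816 in edgeR on the log2 scale. Of the calls of genes named in the report, 174 of 180 held with each library left out. With a minimum change of 1 on the log2 scale, 639 genes were higher and 878 lower. With 1 library left out, higher calls ran from 1030 (without AG_2) to 1959 (without OB_257), with 1046 without AG_1 and 1039 without AG_3, and lower calls from 1397 to 2394. With only genes of 1 annotated transcript, 1182 were higher and 1589 lower of 7656 tested. A fit of BS and AG alone gave 1972 higher and 2459 lower.

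Between BS and OB, with 0 calls, limma called 2 genes without a variance trend, 4 with a pseudocount of 0.5, 6 with a pseudocount of 5, 3 after quantile normalization, 2 among genes with 1 annotated transcript and 0 to 96 with 1 library left out (96 without OB_287), and DESeq2 called 233. Numbers in the titles recur between BS and OB only (BS_287 with OB_287, BS_295 with OB_295), and AG and BS have none in common. Deviations from the group means correlated at 0.069 in the former pairing and 0.299 in the latter, and with so few pairs these libraries were not treated as paired. Whether a shared number marks a shared mouse is not given in the labels. With the number as a replicate block, 1515 genes were higher and 2049 lower in BS than AG, and 131 differed between BS and OB. Of the called genes named in the report, Cplx1, Mkrn3, Serpine2, Spry2 and Spry4 were not called with the block. Among gene groups, the calls higher in BS that moved by over 1.5 times with DESeq2 were those of protocadherins, 13 against 22, of TRP, chloride, purinergic and mechanosensitive channels, 7 against 12, of the ErbB, PDGF, VEGF, MET, TAM and IGF families, 4 against 7, of oncofetal and imprinted genes, 3 against 7, and of the groups given with DESeq2 in the report or with counts of at most 2 by limma. With edgeR the falls of Eph receptors and ephrins moved from 5 to 3 and of cytosolic ribosomal proteins from 6 to 3, and the rises of oncofetal and imprinted genes from 3 to 5.

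Depth limits genes with few reads. Genes with several annotated transcripts tended to hold few reads, and a low level of such a gene was not read as low expression. Groups of 3 libraries were too small to test for outlying samples.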
